A study of Mus musculus with 19 samples.

Results

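The genes described here govern how the heart takes up fatty acids: Lpl, Angptl4, Gpihbp1, Vldlr, Cd36, Fabp3, Slc27a1 and Acsl1. They were chosen by name, 8 of the 34509 symbols in the deposited table, and are followed through every array probe that carries 1 of these symbols, 18 of 46643 probes. Expression was measured on 19 Illumina bead arrays, each with total RNA from the heart of a separate FVB/N mouse. The groups held 5 CCM mice on a high fat diet, 4 WT mice on a high fat diet, 5 CCM mice on a normal diet and 5 WT mice on a normal diet. Feeding lasted 16 weeks in all groups, and every heart was taken at ZT 18, in the dark, active part of the day. CCM mice are transgenic and lack a working circadian clock in cardiomyocytes only. As background, the line is known to express a mutant Clock from the alpha myosin heavy chain promoter, so other cells of the CCM heart keep a normal clock. The labels describe neither the composition of the diets nor the number of transgenic lines.

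Most of the fatty acids that the heart burns arrive in blood as triglyceride in lipoproteins or bound to albumin. Lipoprotein lipase, encoded by Lpl and made largely by cardiomyocytes, is carried across the capillary wall by Gpihbp1, where it splits triglyceride, and the secreted protein Angptl4 inactivates it. Vldlr binds triglyceride-rich lipoproteins. Cd36 and Slc27a1 help fatty acids into the cell, Fabp3 carries them through the cytosol, and Acsl1 joins them to coenzyme A before oxidation or storage. Fatty acids also activate PPAR nuclear receptors, of which Angptl4 is a well-known target.

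Values are log2 normalised signals, so a difference of 1 is a doubling, and a probe was called detected on an array at a detection p under 0.05. Of the 18 member probes, 14 were detected on at least 4 arrays and were tested. The other 4, one each of Lpl (ILMN_1246258) and Angptl4 (ILMN_2424627) and a pair of Vldlr (ILMN_2494669 and ILMN_2520353), were detected on no array. A probe was called changed at a Benjamini-Hochberg adjusted p under 0.05 in limma, adjusted over all 19840 probes tested. The Clock probe ILMN_2600964 read 14.96 to 15.48 in the 10 CCM hearts and 6.16 to 8.40 in the 9 WT hearts, which matched every genotype label. All 10 cardiomyocyte markers were detected, with summed linear levels between 340069 and 364113 in the 19 hearts. Correlations between arrays were 0.963 to 0.993 within groups and 0.966 to 0.994 between groups. CCM normal diet replicate 4 stood apart from its group for Angptl4 and for some PPAR targets, as given below. Because the hearts were measured whole, fewer cells of a type and less RNA per cell cannot be told apart.

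Angptl4 was the member that moved most. Its bright probe rose 5.94-fold on the high fat diet over both genotypes, and no called probe on the array had a larger diet difference. One bright probe of Vldlr was 1.17-fold lower in CCM than in WT hearts. The remaining 12 tested probes, from Lpl, Gpihbp1, Cd36, Fabp3, Slc27a1 and Acsl1 and the other probes of Angptl4 and Vldlr, passed the test in neither averaged comparison.

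**Figure D1:**
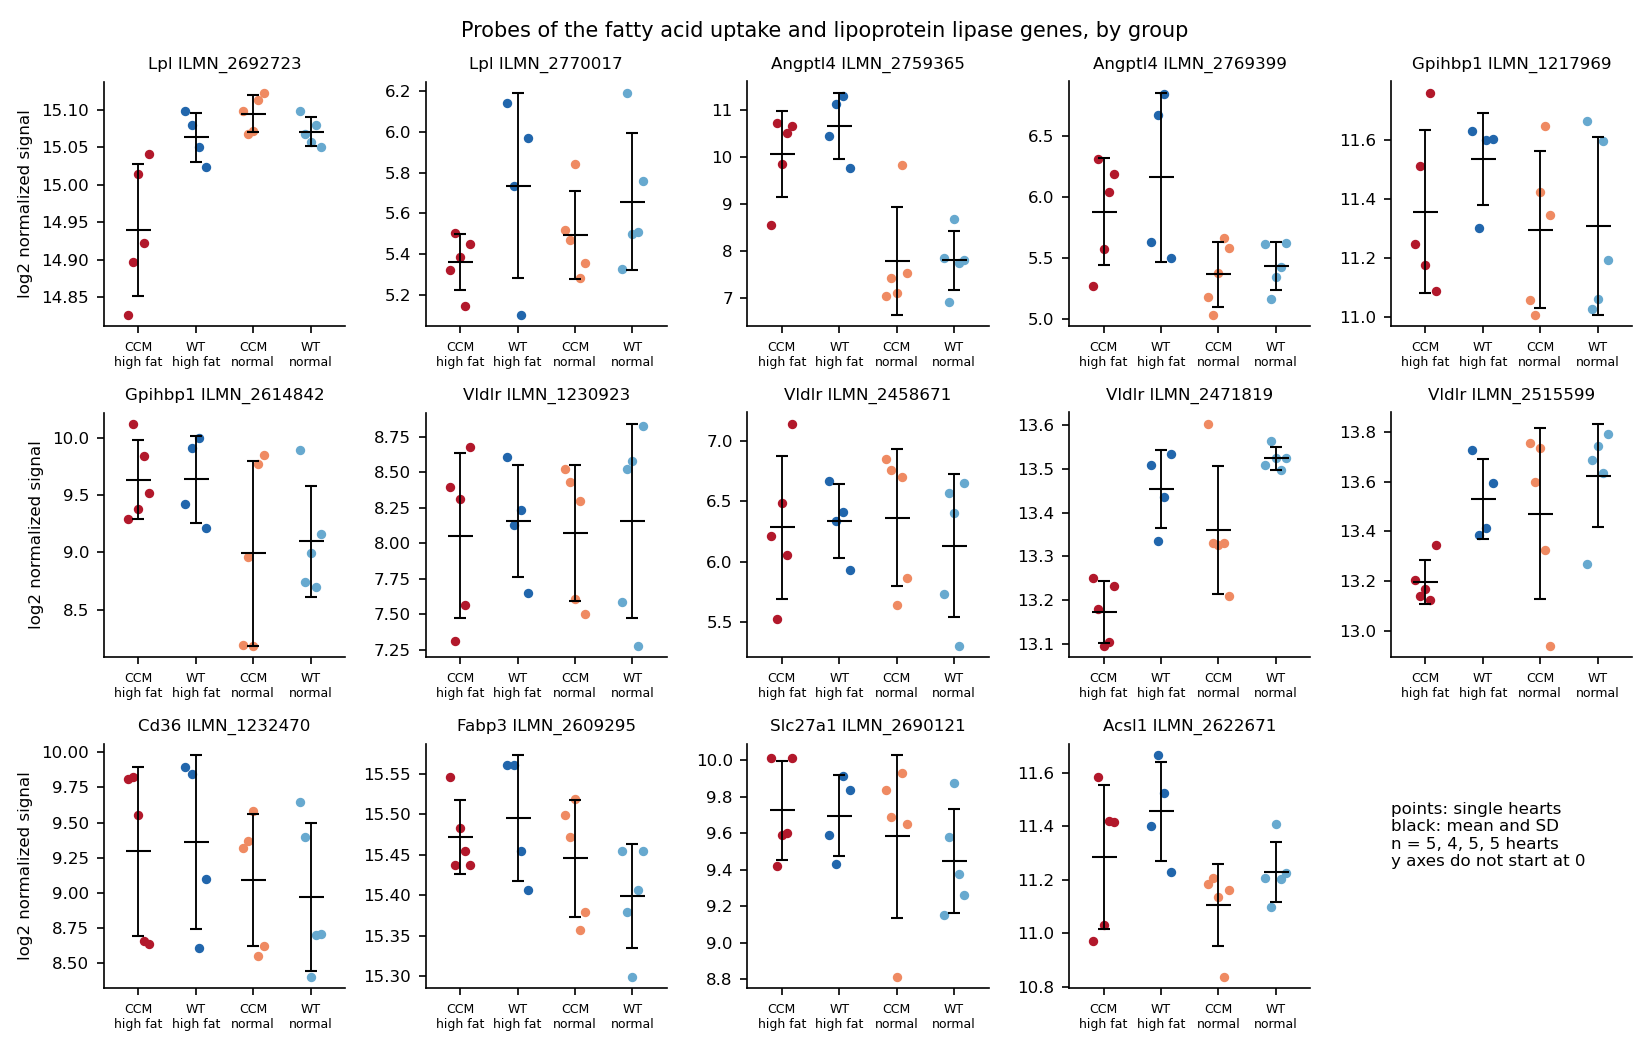
The 14 tested probes of the 8 genes, one panel each, with log2 normalised signal on the vertical axis and a point for every heart. Black bars are group means with SD (n = 5 CCM high fat, 4 WT high fat, 5 CCM normal and 5 WT normal diet hearts), and axes do not start at 0. Angptl4 ILMN_2759365 ran from 8.55 to 11.31 in the high fat hearts, against 6.91 to 9.82 in the normal diet hearts.

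The genes differed widely in signal, although levels of different probes cannot be set against each other as amounts of RNA. Fabp3 was brighter than 99.9% of the tested probes and the bright Lpl probe than 99.7%. The brightest pair of Vldlr probes stood above 98.4% and 98.3% of them, Gpihbp1 ILMN_1217969 above 92.4% and Acsl1 above 91.8%. Slc27a1 (78.9%), Cd36 (74.4%) and Angptl4 ILMN_2759365 (72.6%) lay lower. The highest signal of Fabp3 on any array was 51605.3, against 60995.5 for the brightest probe, so it lay near the top of the measured range.

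The diet comparison asked which genes answer to 16 weeks of high fat feeding. For Angptl4, probe ILMN_2759365 read 8.55, 10.72, 9.86, 10.52 and 10.65 in the CCM high fat hearts. It read 10.45, 11.14, 11.31 and 9.77 in the WT high fat hearts. On the normal diet it read 7.04, 7.42, 7.11, 9.82 and 7.54 in CCM hearts, and 7.86, 6.91, 8.69, 7.75 and 7.81 in WT hearts. The high fat hearts were nearly all brighter, but a single CCM heart on each diet bridged the groups: CCM high fat replicate 1 lay below WT normal replicate 3, and CCM normal replicate 4 lay among the high fat hearts. In WT hearts the diets did not overlap.

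Averaged over the genotypes, Angptl4 ILMN_2759365 was 2.57 ± 0.37 higher on the high fat diet on the log2 scale (SE), or 5.94-fold with a 95% interval of 3.48 to 10.1, at an adjusted p of 0.00263. It was 1 of 14 member probes called in this comparison, in which 0.237% of all tested probes were called (0.202% as higher). Of the 47 called probes it ranked first by size and ninth by p. Leaving out any single heart kept the call, with differences of 2.46 to 2.82. The call was lost, at a similar size, within the animals numbered under 20 alone (2.97, adjusted p = 0.0600) and over 20 alone (2.18, adjusted p = 1).

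Within genotypes the difference of Angptl4 was of like size but did not pass the test in the main fit, of all hearts without block or array weights. In CCM hearts ILMN_2759365 averaged 10.06 ± 0.91 on the high fat diet and 7.79 ± 1.16 on the normal diet (SD, n = 5 each), a difference of 2.27 ± 0.50 (SE; 4.84-fold, adjusted p = 0.233). In WT hearts it averaged 10.67 ± 0.70 on the high fat diet and 7.80 ± 0.63 on the normal diet (SD, n = 4 and 5), a difference of 2.87 ± 0.53 (SE; 7.29-fold, adjusted p = 0.0750). Without CCM normal replicate 4, the only member probe call that appeared in CCM hearts was Angptl4, at 2.78 and an adjusted p of 0.0265, and the WT difference passed as well (2.87, adjusted p = 0.00930). That heart was flagged by its own Angptl4 value, so the smaller p without it is no independent evidence. The WT difference also passed without CCM high fat replicate 1, at an adjusted p of 0.0432, and with a block for animal numbers under and over 20 (2.94, adjusted p = 0.0272). Most fits did not pass. Without single hearts, limma called the WT difference in 2 of 19 fits (highest adjusted p = 0.477) and the CCM difference in 1 of 19 (highest 0.679). Of 13 other settings, 4 called it in WT and 0 in CCM hearts. In the main fit, 0 of 14 member probes were called in either diet comparison within a genotype by limma. The share called over all probes was 0.0252% in WT and 0.0151% in CCM hearts. At an unadjusted p under 0.05 there were 4 of 14 member probes in CCM hearts, against 8.45% of all probes, and 2 of 14 in WT hearts, against 2.97% of all probes. In WT hearts 1 member probe, Angptl4 ILMN_2759365, had groups that did not overlap, where 1.18% of all tested probes did so.

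The 2 genotypes were not shown to differ in their Angptl4 response. The response in CCM hearts minus that in WT hearts was -0.59 on the log2 scale, with a 95% interval of -2.13 to 0.95 and an adjusted p of 1. Without CCM normal replicate 4 it was -0.08. For the difference of responses limma called 0% of all probes and 0 of 14 member probes. None of the member probes had an unadjusted p under 0.05, against 2.58% of all probes. The genotypes themselves differed by -0.61 on the high fat diet (adjusted p = 0.830) and by -0.02 on the normal diet (adjusted p = 0.999), CCM minus WT.

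A dimmer Angptl4 probe, ILMN_2769399, pointed the same way at lower contrast. It was detected on 4 of 5 CCM high fat, 4 of 4 WT high fat, 2 of 5 CCM normal and 2 of 5 WT normal arrays. It read 5.28, 6.31, 5.58, 6.04 and 6.20 in CCM high fat hearts and 5.63, 6.68, 6.85 and 5.50 in WT high fat hearts. Its readings on the normal diet were 5.18, 5.03, 5.38, 5.66 and 5.58 in CCM hearts and 5.62, 5.16, 5.34, 5.43 and 5.63 in WT hearts. The diets overlapped in both genotypes, and the averaged difference of 0.62 ± 0.18 (SE) did not pass the test (adjusted p = 0.301).

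Other genes known as PPAR targets were listed beside Angptl4, and 22 of the 28 considered here could be tested. The list was chosen with earlier results of these data known, so its counts describe these hearts and are no independent test. On the high fat diet, averaged over the genotypes, 6 of the 22 rose, 0 fell and 16 did not pass. Over all tested probes 0.202% were called as higher in this comparison. All 22 differences were positive, with a median of 0.34 on the log2 scale against -0.000367 over all tested probes. Pdk4, a kinase that switches off pyruvate dehydrogenase, rose by 1.41 ± 0.20 (SE, adjusted p = 0.00263). Decr1, which helps oxidise unsaturated fatty acids, rose by 0.52 ± 0.08 (adjusted p = 0.00662). The hormone gene Fgf21 also passed (adjusted p = 0.00224), but it was detected on 7 of 19 arrays, all of high fat hearts. Fgf21 therefore entered the test only through the diet on which it was higher. In CCM hearts it was detected on 5 of 5 high fat and 0 of 5 normal diet arrays, which puts its level at least 1.95-fold higher on the high fat diet (adjusted p = 0.0201). Eci1, which also acts on unsaturated fatty acids, rose by 0.32 ± 0.06 (adjusted p = 0.0160). The remaining 2 that rose, named after their values were seen, were Acot2 (0.99) and Ucp3 (1.03). Ucp3 was detected on 1 of 5 CCM normal and 3 of 5 WT normal diet arrays, so the size of its difference is uncertain.

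By genotype, 1 of the 22 PPAR targets rose with diet in each, where 0.0252% of all tested probes were called in WT and 0.0151% in CCM hearts. Fgf21 passed in CCM hearts, with a median of the list of 0.33 against -0.00342 over all probes. Pdk4, at 3.70-fold, passed in WT hearts, with a list median of 0.37 against 0.00238 over all probes. The difference of responses was called for 0 of the 22 by limma. CCM normal replicate 4 stood above all 9 other normal diet hearts for Angptl4 (9.82, against 8.69 at most), Pdk4 (14.11, against 12.88) and Ucp3 (5.94, against 5.58). Fgf21 was detected on none of the normal diet arrays, so its order among them was not read. CCM normal replicate 4 lay within the range of the other normal diet hearts for Acot2, Decr1 and Eci1.

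**Figure D2:**
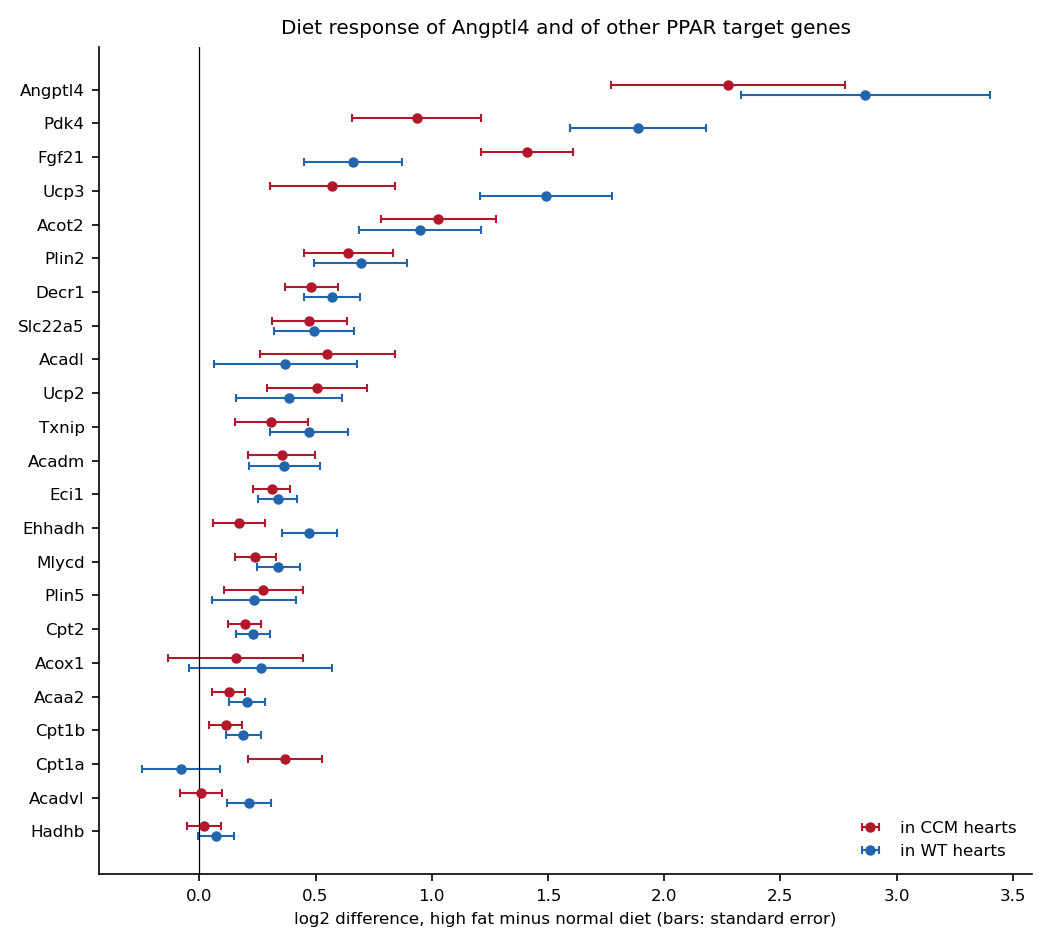
Diet response of Angptl4 ILMN_2759365 and of the 22 other tested PPAR targets, as log2 difference, high fat minus normal diet, with bars of 1 SE. Red points are CCM hearts and blue points WT hearts. Angptl4 had the largest differences, 2.27 in CCM and 2.87 in WT hearts.

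Adipocyte RNA was examined because adipocytes also make Angptl4. Of 11 adipocyte markers 5 could be tested, and Plin1, Lep, Retn, Adrb3, Ucp1 and Pck1 were detected on no array. The summed linear level of the 5 ran from 1880 to 2859 in CCM high fat, 1786 to 2694 in WT high fat, 1687 to 3635 in CCM normal and 1251 to 1706 in WT normal diet hearts. The sum was thus higher in every high fat than normal diet WT heart, and the highest of all was in CCM normal replicate 4, with Adipoq at 9.52 and Cfd at 10.30. Cidea, a lipid droplet protein on that list, rose by 0.70 ± 0.09 with the diet (SE, adjusted p = 0.00148). It was the brightest of the 5, averaging 10.11 against 8.25 for Slc36a2, the next, so it weighed most in the linear sum. The diet differences of the sum therefore cannot be read as differences in adipocyte RNA apart from Cidea. Averaged over the genotypes the median of the 5 differences was -0.21, with 1 of 5 positive, that of Cidea. The median was -0.42 in CCM hearts with 1 of 5 positive, and 0.44 in WT hearts with 4 of 5 positive. The part of adipocyte RNA in the Angptl4 result was not tested.

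**Figure D3:**
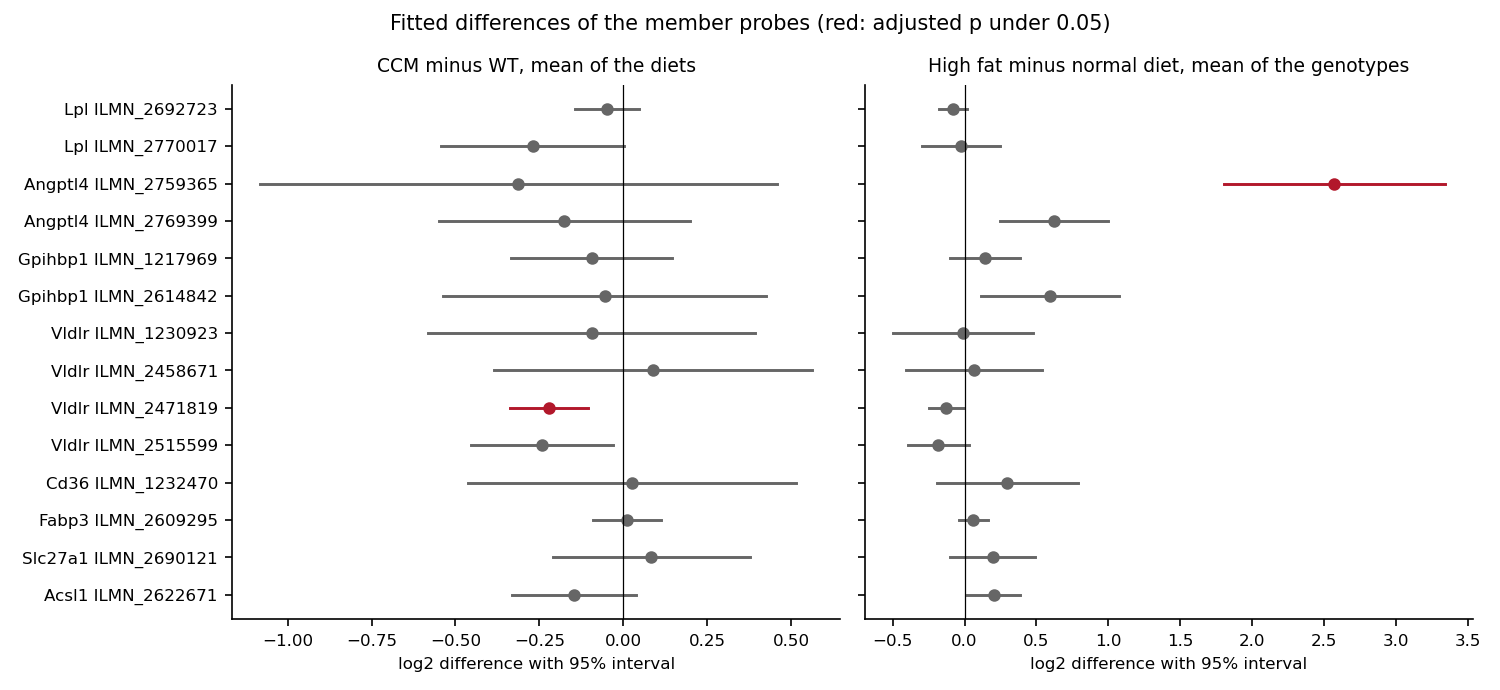
Fitted log2 differences of the 14 tested member probes with 95% intervals, CCM minus WT averaged over the diets on the left and high fat minus normal diet averaged over the genotypes on the right. Red marks an adjusted p under 0.05. The 2 red points are Vldlr ILMN_2471819, at -0.22 between genotypes, and Angptl4 ILMN_2759365, at 2.57 between diets.

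The genotype comparison asked which genes depend on the cardiomyocyte clock. For Vldlr, probe ILMN_2471819 read 13.25, 13.18, 13.10, 13.11 and 13.23 in CCM high fat hearts, against 13.51, 13.34, 13.44 and 13.53 in WT high fat hearts. Normal diet readings were 13.60, 13.33, 13.33, 13.33 and 13.21 in CCM hearts, against 13.51, 13.56, 13.52, 13.50 and 13.52 in WT hearts. The high fat groups did not overlap. On the normal diet 4 of 5 CCM hearts lay below every WT heart, and replicate 1 lay above all of them.

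Averaged over the diets, Vldlr ILMN_2471819 fell by 0.22 ± 0.06 in CCM hearts (SE, 95% interval -0.34 to -0.11, adjusted p = 0.0258). It was 1 of 14 member probes called, and 4.15% of all tested probes were called in this comparison, 2.17% as lower in CCM. The difference was -0.28 on the high fat diet (adjusted p = 0.111) and -0.16 on the normal diet (adjusted p = 0.554). With a block for animal numbers under and over 20 the averaged difference was -0.23 and stayed called (adjusted p = 0.0183). Leaving out CCM high fat replicate 3, WT high fat replicate 1 or WT high fat replicate 4 ended the call (adjusted p = 0.0543, 0.0574 and 0.0619), at differences of -0.21 each. It was also lost when each array was only shifted to an equal median (-0.24, adjusted p = 0.138), within the animals numbered under 20 alone (-0.18, adjusted p = 0.582) and over 20 alone (-0.28, adjusted p = 0.195), and without the 3 arrays of lowest mean signal (-0.24, adjusted p = 0.0574).

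The other bright Vldlr probe, ILMN_2515599, was also lower on average in CCM hearts but did not pass. It read 13.21, 13.14, 13.17, 13.13 and 13.35 in CCM high fat hearts, against 13.73, 13.39, 13.41 and 13.59 in WT high fat hearts. On the normal diet it read 13.76, 13.60, 13.73, 13.33 and 12.94 in CCM hearts, against 13.27, 13.69, 13.74, 13.63 and 13.79 in WT hearts. The high fat groups did not overlap and the normal diet groups did. Its averaged difference was -0.24 ± 0.10 (SE, adjusted p = 0.265), with -0.33 on the high fat diet (adjusted p = 0.452) and -0.15 on the normal diet (adjusted p = 0.955). In the animals numbered under 20 its normal diet difference had the other sign, 0.22, against -0.59 in those numbered over 20.

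On the high fat diet, 2 of 14 member probes, both of Vldlr, had CCM and WT groups that did not overlap, where 4.75% of all tested probes did so, 2.46% with CCM lower. In neither genotype comparison within a diet was a member probe called by limma, 0 of 14 each. The share called over all probes was 1.59% on the high fat and 1.45% on the normal diet. An unadjusted p under 0.05 was found for 2 of 14 member probes on the high fat diet, against 9.58% of all probes, and for 1 of 14 on the normal diet, against 8.67%, all of Vldlr.

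The 2 dimmer Vldlr probes showed another pattern. ILMN_1230923 and ILMN_2458671 differed between the genotypes by -0.09 and 0.09 on average (adjusted p = 0.961 and 0.962), CCM minus WT. The same 7 hearts had the lowest values of both probes. ILMN_1230923 read 7.27 to 7.65 in those 7 hearts and 8.13 to 8.83 in the other 12, with a gap between them. ILMN_2458671 read 5.30 to 6.06 in the 7 and 6.21 to 7.14 in the 12, where larger steps lay within each side than between them. The 7 hearts came from all groups, with 2 CCM high fat, 1 WT high fat, 2 CCM normal and 2 WT normal diet hearts. The bright probe ILMN_2471819 did not follow this order, at 13.11 to 13.53 in the 7 and 13.10 to 13.60 in the 12.

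Markers of other cells were set beside the genotype results. The erythroid list was lower in CCM hearts for 6 of 6 tested markers, with a median of -0.42 and 0 called by limma, although 5 of the 6 had an unadjusted p under 0.05, as did 13.1% of all probes. Its summed level was 104635 to 132628 in CCM high fat, 117443 to 132976 in WT high fat, 76046 to 107769 in CCM normal and 116701 to 126430 in WT normal diet hearts. Acta2, a smooth muscle actin, fell by 0.49 in CCM hearts (adjusted p = 0.0200), the only call among 8 fibroblast and smooth muscle markers. In this averaged comparison 4.15% of all tested probes were called. Of the 8 fibroblast and smooth muscle markers, 5 were higher in CCM hearts on average, 7 on the normal and 3 on the high fat diet. That list summed to 28933 to 33409 in CCM high fat, 34136 to 40823 in WT high fat, 29314 to 38031 in CCM normal and 29648 to 43598 in WT normal diet hearts. Of the 5 tested adipocyte markers Cidea was called, 0.39 higher in CCM hearts (adjusted p = 0.0131), beside the same 4.15% of all probes. On average 4 of the 5 were higher, with a median of 0.16. The diets differed in this, with 5 of 5 higher on the normal diet (median 0.53) and 1 of 5 on the high fat diet (median -0.22). Averaged over the diets, macrophage markers were lower in CCM hearts for 8 of 9, with a median of -0.10, 0 called by limma and 1 at an unadjusted p under 0.05. On the normal diet 0 of 9 were higher in CCM hearts (median -0.26), and on the high fat diet 7 of 9 were (median 0.06). The part of these cells in the Vldlr difference was not tested.

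Promoter sequence was available for 5 of the 8 genes, as 9 windows of 250 bases before a transcript start from RefSeq on GRCm38.p6. Vldlr is shown because it was the member called between genotypes, with both of its windows. Slc27a1 had 3 windows, and window 3 is shown because it was the only one of the 9 with an E-box. Clock proteins are known to bind this element. Slc27a1 windows 1 and 2 held no E-box. Capitals mark the E-box, CACGTG.
Vldlr window 1, chr19:27216234-27216483, plus strand: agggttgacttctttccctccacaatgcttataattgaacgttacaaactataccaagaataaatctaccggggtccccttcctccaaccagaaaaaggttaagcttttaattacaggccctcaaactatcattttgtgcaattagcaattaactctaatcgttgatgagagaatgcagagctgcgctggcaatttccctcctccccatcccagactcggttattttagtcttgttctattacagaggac
Vldlr window 2, chr19:27216770-27217019, plus strand: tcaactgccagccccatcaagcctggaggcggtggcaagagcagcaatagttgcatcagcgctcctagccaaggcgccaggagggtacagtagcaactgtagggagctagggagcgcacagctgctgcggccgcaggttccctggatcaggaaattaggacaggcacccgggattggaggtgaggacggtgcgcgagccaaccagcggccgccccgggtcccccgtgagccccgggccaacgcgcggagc
Slc27a1 window 3, chr8:71570344-71570593, plus strand: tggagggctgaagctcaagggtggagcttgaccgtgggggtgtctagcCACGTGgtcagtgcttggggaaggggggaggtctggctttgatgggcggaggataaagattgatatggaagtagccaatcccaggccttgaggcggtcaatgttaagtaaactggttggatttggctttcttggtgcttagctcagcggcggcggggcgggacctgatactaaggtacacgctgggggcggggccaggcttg

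The windows were searched on both strands for CACGTG, for CACGTT (a variant E-box), for the D-box TTATGTAA, for the nuclear receptor core site AGGTCA and for 2 copies of that site in direct repeat with a spacer of 1 base. Neither Vldlr window held any of these motifs. The match in Slc27a1 window 3 lay 202 bases before the start, and the Cd36 window held 1 AGGTCA, which lay 228 bases before the start. Over 32851 mouse windows of the same length, 6.02% held CACGTG, 3.85% CACGTT, 0.819% TTATGTAA, 14.0% AGGTCA and 0.0335% the direct repeat, whose windows also count for AGGTCA. A match describes these letters in these windows only.

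Lpl itself passed no test. Its bright probe ILMN_2692723 read 14.83, 14.90, 15.01, 14.92 and 15.04 in CCM high fat hearts, against 15.10, 15.08, 15.05 and 15.02 in WT high fat hearts. The normal diet values were 15.10, 15.07, 15.07, 15.11 and 15.12 in CCM hearts, against 15.10, 15.07, 15.06, 15.08 and 15.05 in WT hearts. The CCM high fat hearts had the lowest mean of the groups and did not overlap the CCM normal diet hearts, which was so for 1.24% of all tested probes in that comparison. The difference between diets in CCM hearts was -0.15 ± 0.06 (SE, adjusted p = 0.589). It was -0.01 in WT hearts (adjusted p = 1), and the difference of the responses was -0.15 (95% interval -0.34 to 0.04, adjusted p = 1). At these top ranks several hearts held the same value, because quantile normalisation gives probes of equal rank equal values.

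The dim Lpl probe ILMN_2770017 was near background. It was detected on 0 of 5 CCM high fat, 3 of 4 WT high fat, 3 of 5 CCM normal and 3 of 5 WT normal diet arrays. It averaged 5.36 ± 0.14 in CCM high fat and 5.74 ± 0.46 in WT high fat hearts (SD, n = 5 and 4). In WT high fat replicate 3, where the probe was not detected, it read 5.10, below all 5 CCM high fat hearts (5.15 to 5.51). Set against the lowest detected signals on the CCM high fat arrays, the WT high fat mean was 1.18-fold higher. That mean includes the undetected heart, so 1.18-fold is not a minimum. The same ratio was 1.11 for the WT normal and 0.995 for the CCM normal diet mean. The difference between the high fat groups did not pass the test (adjusted p = 0.566).

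Genes that mature, anchor or regulate lipases and take up lipoproteins were examined as a list, of which 17 of 26 could be tested. None passed in any of the 7 comparisons by limma. Averaged over the diets, 2 of 17 had an unadjusted p under 0.05 between genotypes, against 13.1% of all probes. Averaged over the genotypes, 1 of 17 had one between diets, against 7.89% of all probes. Between genotypes the smallest p-values belonged to Sorl1, a sorting receptor (0.28, adjusted p = 0.137), and Sdc4, a heparan sulfate proteoglycan (-0.28, adjusted p = 0.313), CCM minus WT. Between diets they belonged to Sorl1 (-0.25, adjusted p = 0.561) and Hspg2, the basement membrane proteoglycan perlecan (0.16, adjusted p = 0.668). The list median was 0.02 between genotypes and 0.03 between diets, against 0.00378 and -0.000367 over all tested probes.

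Gpihbp1 was measured by 2 probes that gave different diet differences. Probe ILMN_2614842 read 9.29, 10.12, 9.38, 9.84 and 9.52 in CCM high fat and 9.42, 9.91, 10.001 and 9.21 in WT high fat hearts. It read 8.19, 8.95, 8.19, 9.77 and 9.85 in CCM normal and 9.89, 8.74, 8.99, 8.70 and 9.16 in WT normal diet hearts. All high fat hearts were above 9.2, while the normal diet hearts spread from the lowest to near the highest values. Averaged over genotypes it was 0.59 ± 0.23 higher on the high fat diet (SE, adjusted p = 0.580). This difference was 0.75 in the animals numbered under 20 and 0.27 in those numbered over 20, and in CCM hearts its sign turned, at 1.15 in the lower and -0.13 in the higher numbers. The brighter probe ILMN_1217969 differed by 0.14 ± 0.12 (SE, adjusted p = 0.719). It averaged 11.36 ± 0.28 in CCM high fat, 11.53 ± 0.16 in WT high fat, 11.30 ± 0.27 in CCM normal and 11.31 ± 0.30 in WT normal diet hearts (SD, n = 5, 4, 5 and 5).

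Because Gpihbp1 is a capillary endothelial gene, endothelial markers were set beside it. Of 12 endothelial markers, 0 were called between diets by limma. On average 1 had an unadjusted p under 0.05, against 7.89% of all probes. All 12 were higher on the high fat diet on average, with a median of 0.13. Their summed level ran from 27031 to 34883 in CCM high fat, 26957 to 34485 in WT high fat, 22635 to 30320 in CCM normal and 24412 to 30480 in WT normal diet hearts. Their part in the Gpihbp1 differences was not tested. A list of 14 genes known to control fatty acid transport through endothelium had 12 tested members, none called in any comparison by limma. Between genotypes, averaged over the diets, 3 of the 12 had an unadjusted p under 0.05, against 13.1% of all probes. The smallest p-values between genotypes were those of Hey1, a Notch target (-0.25, adjusted p = 0.186), and Foxo1, a forkhead transcription factor (-0.21, adjusted p = 0.266). Between diets they were those of Nrp1, a VEGF coreceptor (-0.20, adjusted p = 0.641), and Aplnr, the apelin receptor (0.22, adjusted p = 0.664).

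Cd36, represented by 1 probe, separated by animal number and not by diet or genotype. It read 9.81, 9.82, 9.55, 8.65 and 8.63 in CCM high fat hearts, against 9.90, 9.84, 8.60 and 9.10 in WT high fat hearts. Its normal diet values were 9.32, 9.37, 9.58, 8.55 and 8.62 in CCM hearts, against 9.64, 9.40, 8.40, 8.70 and 8.71 in WT hearts. Every group held high and low hearts. The 10 animals numbered under 20 in the labels read 9.32 to 9.90 and the 9 numbered over 20 read 8.40 to 9.10, with no overlap. Of the 14 member probes, 1 divided in this way, as did 2.49% of all tested probes. The labels do not say what the numbers stand for.

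Neither factor moved Cd36 past the threshold. The diet difference, high fat minus normal averaged over the genotypes, was 0.30 ± 0.23 without regard to animal number (SE, adjusted p = 0.709). It was 0.25 ± 0.07 with the number as a block (adjusted p = 0.236), 0.33 in the animals numbered under 20 and 0.15 in those numbered over 20. The genotype difference, CCM minus WT, was 0.03 without and -0.12 with the block (adjusted p = 0.993 and 0.543), and -0.12 and -0.11 within the lower and the higher numbers. The sign of this small difference therefore turned with the block.

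**Figure D4:**
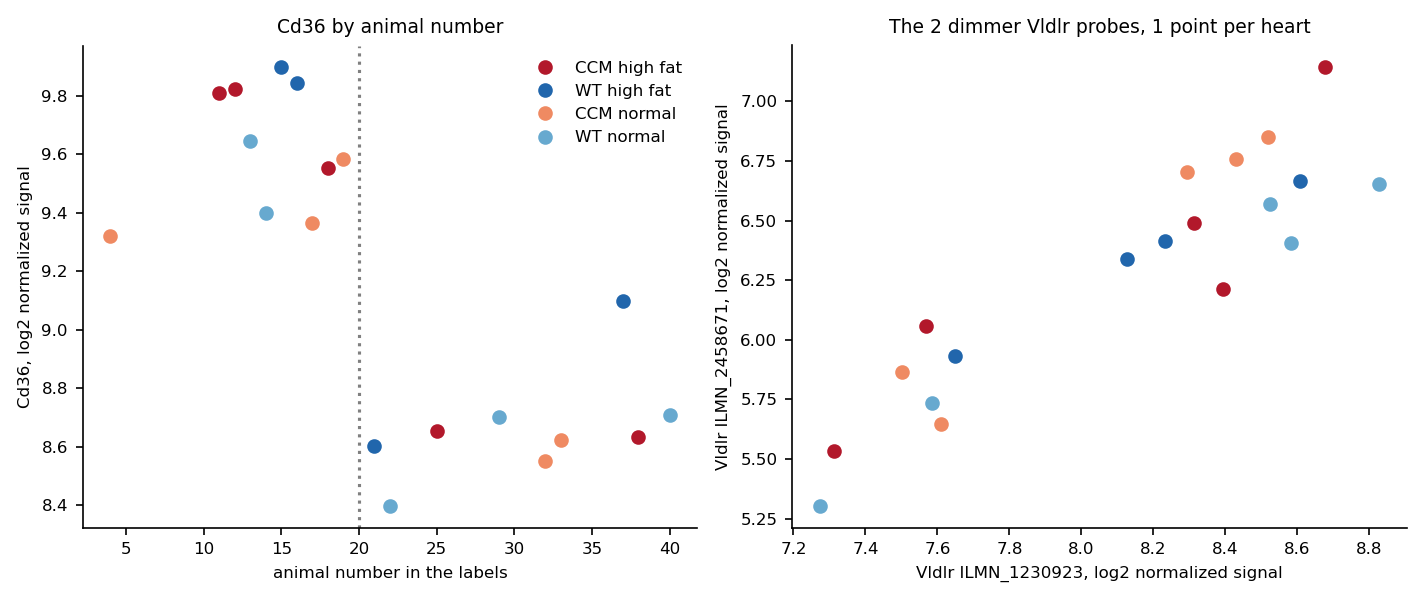
Left, log2 normalised signal of Cd36 against the animal number in the labels, where a dotted line marks 20; right, log2 normalised signals of the 2 dimmer Vldlr probes against each other, with a point for every heart in both. Colours give the 4 groups. Cd36 read 9.32 to 9.90 below number 20 and 8.40 to 9.10 above it, and the same 7 hearts are lowest on both Vldlr probes.

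Fabp3 and Slc27a1 did not pass any test. Fabp3 averaged 15.47 ± 0.05 in CCM high fat, 15.50 ± 0.08 in WT high fat, 15.45 ± 0.07 in CCM normal and 15.40 ± 0.06 in WT normal diet hearts (SD, n = 5, 4, 5 and 5). Its diet difference was 0.06 with a 95% interval of -0.04 to 0.16, and its genotype difference 0.01 with an interval of -0.09 to 0.11. Slc27a1 averaged 9.73 ± 0.27, 9.70 ± 0.22, 9.58 ± 0.45 and 9.45 ± 0.29 in the same groups. Its diet difference was 0.19 (95% interval -0.10 to 0.49) and its genotype difference 0.08 (95% interval -0.21 to 0.38). All groups overlapped for both genes.

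The related list of fatty acid transport proteins, binding proteins and genes that move Cd36 to the membrane had 18 of 26 members tested and none called in any comparison by limma. Between genotypes 2 of the 18 had an unadjusted p under 0.05, against 13.1% of all probes. They were Tbc1d1, a Rab GTPase-activating protein (-0.22, adjusted p = 0.228), and Zdhhc4, a palmitoyltransferase of Cd36 (0.13, adjusted p = 0.326). Between diets none had, against 7.89% of all probes. The smallest p-values there were those of Fabp4, the adipocyte and endothelial binding protein (0.30, adjusted p = 0.624), and the small GTPase Rab10 (-0.15, adjusted p = 0.629). The list median was 0.01 between genotypes and -0.03 between diets.

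Acsl1 was higher on the high fat diet without passing the test. It averaged 11.28 ± 0.27 in CCM high fat, 11.45 ± 0.19 in WT high fat, 11.10 ± 0.15 in CCM normal and 11.23 ± 0.11 in WT normal diet hearts (SD, n = 5, 4, 5 and 5). The groups overlapped. The averaged diet difference was 0.20 ± 0.09 (SE, adjusted p = 0.611) and the averaged genotype difference was -0.15 ± 0.09 (SE, adjusted p = 0.567). Of the other acyl-CoA synthetases and acyl-CoA binding genes 12 of 16 could be tested, and none was called in any comparison by limma. Between genotypes 6 of the 12 had an unadjusted p under 0.05 on the high fat diet, against 9.58% of all probes, 2 on the normal diet, against 8.67%, and 3 averaged over the diets, against 13.1%. The smallest p-values of the averaged comparison belonged to the synthetases Acsl6 (-0.41, adjusted p = 0.0575) and Acsm5 (-0.38, adjusted p = 0.174). Between diets they belonged to the synthetase Acsl4 (-0.18, adjusted p = 0.640) and the acyl-CoA binding protein gene Dbi (0.14, adjusted p = 0.642).

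Between genotypes the PPAR target list held 4 calls of 22, in both directions, where 4.15% of all tested probes were called. Fgf21 passed as higher in CCM hearts (adjusted p = 0.0244), without a measured size. It was detected on 5 of 5 CCM high fat and 2 of 4 WT high fat arrays and on no normal diet array. The normal diet part of this comparison thus rests on undetected signal, and Fgf21 entered the test only through high fat arrays. Slc22a5, the carnitine transporter, fell by 0.50 (adjusted p = 0.0161), Ehhadh, a peroxisomal beta-oxidation enzyme, fell by 0.40 (adjusted p = 0.00505) and Eci1, an enoyl-CoA isomerase, fell by 0.23 (adjusted p = 0.0285). On the high fat diet alone Fgf21 and Ehhadh passed (adjusted p = 0.0213 and 0.0168), where 1.59% of all tested probes were called. None passed on the normal diet. Ehhadh differed by -0.55 on the high fat diet, and Fgf21 has no firm size there because the WT group detected it in part. The list median over the diets was -0.09, against 0.00378 over all probes. Angptl4 differed by -0.31 in the same comparison and did not pass (adjusted p = 0.873).

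The genes whose values ran most like each member were sought over the 19 arrays, among 11018 genes with an official-style symbol, by Pearson's r. These correlations describe the arrays, which share diet, genotype and animal number. Angptl4 ILMN_2759365 was closest to Pdk4 (0.923) and to Plin2, a lipid droplet protein (0.879). Cd36 was closest to Cat, which encodes catalase (0.960), and to Lingo4 (0.956). The brightest Vldlr probe, ILMN_2515599, was closest to Fryl (0.953) and Odr4 (0.944), and Gpihbp1 to Tmem30a (0.880) and the Notch receptor gene Notch4 (0.854). Lower values were found for Fabp3 with Lamb1 (0.781) and Lonp2 (0.769) and for Slc27a1 with Fbxo46 (0.782) and Hnrnpl (0.781). They were also lower for Acsl1 with Abhd1 (0.772) and Plin2 (0.725) and for Lpl with Aldh5a1 (0.764) and Sec11c (0.762).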

How the data were processed

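Hearts of 19 mice were grouped by the genotype and diet in their labels, 1 array per animal. Unnormalized average bead intensities were deposited by the authors, per the file headers. A detection p-value stood beside each deposited intensity. The submitters' processing notes name BeadStudio 3. The authors' normalized intensities served as an alternative; how they were normalized is not stated in the labels. Mean signal per array was 418.75 to 580.37, with 17117 to 18731 probes detected; array number and signal over background limit the precision.

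Symbols were updated through RefSeq (GRCm38.p6): 26165 probes matched by accession, 4639 by symbol, 3898 by older symbol and 11941 kept the name in the file. Values were background-corrected and quantile normalized with neqc (limma 3.58.1, R 4.3.3, offset 16) and are log2. Probes detected on at least 4 arrays (19840) entered lmFit and eBayes with 1 mean per group over all 19 arrays (15 residual and 3.67 prior degrees of freedom). There were 7 two-sided comparisons; p-values were adjusted by Benjamini-Hochberg over the probes tested, within each comparison. Averaged comparisons weight groups equally. A gene of another list was represented by its detected probe of highest mean. Bounds ("at least") compare the brighter group's mean with the mean, over the dim group's arrays, of the higher of the lowest detected signal and the probe's own.

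The members, the 5 gene lists and the 6 marker lists were chosen with earlier results of these data known. Named from each list are up to 4 called genes with the smallest p, or 2 where none passed, and for each member the 2 most alike genes. 1 gene of the PPAR target list is not reported here. The fit was tested on simulated data. Alternatives covered background correction, normalization, the deposited normalized values, filters, 1 probe per gene, variance model, weights, fits of 2 groups, animal numbers and leaving out each animal.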

Additional observations from a re-analysis of the deposited data

Results flagged for a closer look

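In 4 of the 56 combinations of a tested member probe and a group, 1 heart lay unusually far from the others by Dixon's test, where chance gives about 5%. Angptl4 ILMN_2759365 read 9.82 in CCM normal diet replicate 4, against 7.54 in the nearest heart of that group. In the same heart Acsl1 ILMN_2622671 was low, at 10.84 against 11.14 in the nearest. Slc27a1 ILMN_2690121 was low in CCM normal diet replicate 3, at 8.81 against 9.65. Gpihbp1 ILMN_1217969 was low in WT high fat replicate 2, at 11.3 against 11.6.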

How the results depend on the processing

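No alternative turned the sign of a called member. The Angptl4 diet difference, averaged over genotypes, was called without each of the 19 animals (2.46 to 2.82) and in 10 of 12 other settings (2.18 to 2.97). The Vldlr genotype difference, averaged over diets, ranged from -0.25 to -0.20 without single animals, called in 16 of 19, and from -0.28 to -0.18 in 11 other settings, called in 7. Without single animals the number of member probes called was 1 to 1 for the averaged diet comparison, 0 to 1 for the averaged genotype comparison and for diet in CCM and in WT, and 0 to 0 for the rest. Of 14 member probes, 1 was called between genotypes on the high fat diet without background correction, with the authors' normalized values and with a trended, robust variance (Vldlr ILMN_2471819, adjusted p = 0.0407, 0.0406 and 0.0313). Between diets in WT, 1 was called without background correction, with the authors' values, with array weights and with a block for animal numbers (Angptl4, adjusted p = 0.0425, 0.0425, 0.0226 and 0.0272). The averaged genotype comparison had 0 with arrays shifted to equal medians, with 1 probe per gene (Vldlr then stood by ILMN_2515599), within the animals numbered under 20 or over 20, and without the 3 arrays of lowest mean signal, an alternative chosen after seeing the data. The averaged diet comparison had 2 with array weights (also Angptl4 ILMN_2769399, adjusted p = 0.0399) and 0 within the animals numbered under 20 or over 20, where fewer animals enter. Over all probes, 823 genotype calls became 474 with shifted medians and 245 and 173 within the lower and higher numbers, and 47 diet calls became 222 with array weights, 2 and 0 within those numbers, and 22 to 53 without single animals. In WT, 5 diet calls became 14, 13, 20 and 10 without background correction, with the authors' values, with weights and with the block, and 2 to 7 without single animals; in CCM, 3 became 0 to 7. Causes were not tested. No paired analysis was possible because each animal has its own number in the labels. A slide block was not run, since no slides are given in the sources used here.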
